A study of Mus musculus with 12 samples.

Results

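Sphingosine kinase 1 (Sphk1) is the enzyme that phosphorylates sphingosine to sphingosine 1-phosphate, a lipid that cells export and that acts on its own family of receptors in endothelium, leukocytes and mesenchyme. In the newborn mouse lung, where alveoli are still forming and elastin and collagen are being laid down, raised oxygen interrupts this growth and serves as a model of bronchopulmonary dysplasia. The values described here are the difference between Sphk1-/- and wild type (WT) lungs taken over both oxygen levels, that is, what the knockout lungs carried in room air as well as in hyperoxia. All 12 arrays of the series enter that difference, 6 of them from Sphk1-/- pups and 6 from WT pups.

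A whole-transcript array was hybridized with RNA of the right lung's superior lobe in 4 groups of 3 mice. WT RA and Sphk1-/- RA pups were kept in room air, and WT HO and Sphk1-/- HO pups were kept in 75% oxygen for 7 days from the age of 1 day, with nursing dams alternated between room air and hyperoxia and no more than 6 pups in a litter. The knockout line had been crossed to C57BL/6 for 2 generations, and the mixed stock from that cross was the WT control, so the deletion and any other allele that differs between the lines cannot be told apart. The study's methods describe male mice and lungs flushed with saline, each array holding the RNA of 1 animal.

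The arrays were those of lung. Sftpc, the surfactant protein of alveolar type 2 cells, lay between 12.6 and 13.4 on the log2 scale on every array, and Ager of type 1 cells between 11.2 and 12.1. Array medians ran from 4.76 to 4.85, apart from 4.99 on Sphk1-/- RA 1 and 4.89 on Sphk1-/- HO 1. Y-linked genes were high on 4 of the 12 arrays and low on the rest, although the methods name males. Of the 4, 1 was a WT array (WT RA 3) and 3 were Sphk1-/- arrays (RA 1, HO 1 and HO 2), with none in WT HO. Xist, the RNA of the inactive X chromosome of females, was 3.47 to 4.69 on these 4 and 8.41 to 10.1 on every other array. Sex and genotype were thus not balanced in hyperoxia. The values for the 1400 olfactory and vomeronasal transcripts, genes that lung is not known to use, give a measure of low signal, and their 95th percentile was 4.57 to 4.93. In whole tissue, fewer cells of a type and less RNA per cell cannot be told apart.

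Sphk1 itself did not pass the test for a genotype effect over both oxygen levels. Its log2 levels were 5.37, 4.90 and 5.40 in WT RA, 5.59, 5.78 and 5.84 in Sphk1-/- RA, 6.79, 7.50 and 7.04 in WT HO, and 5.70, 6.28 and 5.57 in Sphk1-/- HO. The knockout arrays were above the WT arrays in room air and below them in hyperoxia, with no overlap at either level. The genotype effect was -0.38 (SE 0.16, adjusted p = 0.311), with -1.26 in hyperoxia (adjusted p = 0.00816) and 0.51 in room air (adjusted p = 0.386). Whether its probes fall inside or outside the deleted exons is not known from the labels or methods, and so these levels are no check of the genotype.

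Across the 41345 transcripts on the array, 478 (1.16%) passed the test of limma for the genotype effect at an adjusted p below 0.05, with 277 higher (0.670%) and 201 lower (0.486%) in Sphk1-/- lungs. That split was 271 to 261 after a further quantile normalization and 152 to 154 after centring each array on its median. Of the 478, 352 had the same sign at both oxygen levels and 126 had opposite signs, so that the mean over oxygen levels was not by itself a shift at both. A transcript is therefore described as shifted at both oxygen levels where it passed the test and every Sphk1-/- array lay beyond every WT array, in the same direction, in room air and again in hyperoxia. This held for 193 transcripts (0.467%), 137 higher (0.331%) and 56 lower (0.135%), while 795 transcripts (1.92%) had that order of arrays regardless of the test. The split into higher and lower was 125 to 99 after the further quantile normalization and 67 to 52 after median centring. The number that passed fell to between 158 and 428 when any array other than Sphk1-/- HO 2 was left out, and was 1255 without Sphk1-/- HO 2. All 193 kept their sign in every one of these fits, but the order of arrays that defines them fixes the sign when an array is left out.

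Room air and hyperoxia on their own gave 474 (1.15%) and 2374 (5.74%) called transcripts. Of the 250 called in both, 16 had the same sign and 234 had opposite signs. Among the latter, 171 were lower in Sphk1-/- RA and higher in Sphk1-/- HO than in the matching WT group. The room air and hyperoxia differences share no arrays, but they share 1 estimate of the spread. The plot of both differences shows the shifted transcripts as a sparse set towards the lower left and the upper right.

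**Figure D1:**
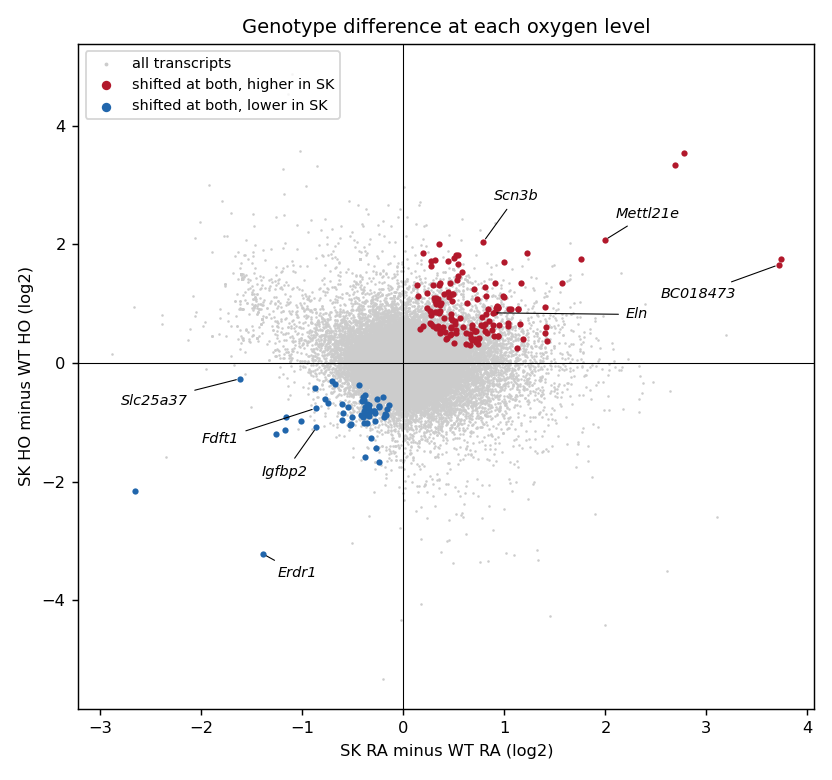
Difference between Sphk1-/- (SK) and WT in room air (RA, x axis) and in hyperoxia (HO, y axis), both in log2, for each of the 41345 transcripts (grey). The 137 transcripts shifted higher at both oxygen levels are red and the 56 shifted lower are blue; Mettl21e and Eln lie near the diagonal, BC018473 to its right and Scn3b above it.

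Of the 193 transcripts, 44 were not listed in the platform annotation used here and 13 carried several gene symbols. The rest gave 133 genes, 92 higher and 41 lower, out of 22180 genes with 1 transcript each (0.600%, 0.415% and 0.185%). The absolute genotype effect of these genes ran from 0.384 to 2.68 with a median of 0.659, and 13 of them, 10 higher and 3 lower, reached 2-fold. Being shifted at both levels did not mean being shifted equally: 95 of the 133 had the larger difference in hyperoxia, and 19 also had a called interaction of genotype and oxygen (6.98% of all genes and 4.79% of all transcripts had one), 17 of them larger in hyperoxia and 2 larger in room air.

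The first genes are those with similar measured differences in room air and in hyperoxia. Mettl21e, a methyltransferase of the family that modifies lysines and best known from skeletal muscle, stood at 6.06, 5.90 and 5.19 in WT RA against 7.99, 7.70 and 7.45 in Sphk1-/- RA. In hyperoxia it stood at 3.92, 3.80 and 4.40 in WT against 6.31, 5.82 and 6.22 in Sphk1-/-. Levels fell with oxygen in both genotypes, and the measured differences were 2.00 in room air and 2.07 in hyperoxia. All 3 WT HO arrays lay under the 95th percentile of the olfactory transcripts, so the hyperoxia difference is a lower bound, at least 2.77-fold with those arrays set to that percentile, and the steps in air and oxygen cannot be called equal. The fitted genotype effect was 2.03 (SE 0.18, adjusted p = 0.000841) and the fitted interaction was 0.08, with a 95% interval from -0.71 to 0.86. None of the 11 skeletal muscle markers was called, where 1.54% of all genes were. Their mean level relative to all arrays was 0.02 to 0.19 in WT RA and -0.16 to -0.01 in Sphk1-/- RA. In hyperoxia it was -0.19 to 0.07 in WT and -0.09 to 0.18 in Sphk1-/-. Its part in the Mettl21e values was not tested.

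Eln, the gene of elastin, the protein that gives the alveolar wall its recoil, was higher in the knockouts in air and in oxygen. Its levels were 11.90, 11.83 and 11.95 in WT RA, 12.64, 12.86 and 12.84 in Sphk1-/- RA, 10.67, 10.88 and 10.88 in WT HO, and 11.70, 11.40 and 11.86 in Sphk1-/- HO. Eln was lower in hyperoxia than in room air by 1.08 in WT and 1.12 in Sphk1-/-, and the knockout arrays were higher throughout. The genotype effect was 0.87 or 1.82-fold (SE 0.10, adjusted p = 0.00346), with 0.89 in room air and 0.84 in hyperoxia. The interaction was -0.04 with an interval from -0.49 to 0.40. Eln was the 1 gene shifted at both levels among the 14 measured genes of the elastic fibre list, where 0.600% of all genes were. Fbn2, a fibrillin of the microfibrils around elastin, also passed the test for the mean effect at 0.83, but was lower in Sphk1-/- RA by 1.18 and higher in Sphk1-/- HO by at least 2.43, with the WT HO arrays at the olfactory level.

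Fdft1, squalene synthase, which commits farnesyl pyrophosphate to sterol synthesis, was lower in the knockouts by a similar amount at each oxygen level. It stood at 8.67, 8.79 and 8.44 in WT RA and 7.44, 7.82 and 8.03 in Sphk1-/- RA. In hyperoxia it stood at 9.06, 8.97 and 9.19 in WT and 8.16, 8.30 and 8.46 in Sphk1-/-. The groups did not overlap, and the Sphk1-/- HO arrays reached only the lowest WT RA level. The genotype effect was -0.82, a level 1.76-fold lower (SE 0.12, adjusted p = 0.0109), and the interaction was 0.11 with an interval from -0.42 to 0.63.

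Pi15, a secreted peptidase inhibitor, was 6.99, 6.93 and 6.80 in WT RA, 8.03, 7.97 and 7.86 in Sphk1-/- RA, 6.44, 6.64 and 6.18 in WT HO, and 6.79, 7.78 and 7.42 in Sphk1-/- HO. Its effect was 0.98 (SE 0.15, adjusted p = 0.0157), with 1.04 in room air and 0.91 in hyperoxia. The lowest of the Sphk1-/- HO arrays was only a little above the highest WT HO array. Igfbp2, a binding protein for insulin-like growth factors, went the other way. It was 8.70, 8.52 and 8.53 in WT RA, 7.29, 8.19 and 7.68 in Sphk1-/- RA, 9.34, 9.28 and 8.82 in WT HO, and 8.17, 7.87 and 8.15 in Sphk1-/- HO. The effect was -0.97 (SE 0.15, adjusted p = 0.0157), and it was not called without WT HO 2 (adjusted p = 0.0521).

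The remaining genes with the smallest interactions were Per3 of the circadian clock, Stc1, a secreted glycoprotein, Gria3, a glutamate receptor subunit, Kdm6b, which demethylates lysine 27 of histone H3, Col10a1 and the RNA helicase Ddx17 among those higher, and Cd300ld, the tubulin Tubb6, Cdr2 and the squalene epoxidase Sqle among those lower. Their interaction estimates lay between -0.08 and 0.08, that of Cd300ld resting on knockout arrays at low signal. Among those with an effect of at least 0.5, Per3 had the smallest interaction estimate, with 0.81 in room air and 0.82 in hyperoxia (adjusted p = 0.0393 for the genotype effect), and it was the 1 called gene among the 16 measured clock genes, where 1.54% of all genes were called. Neither labels nor methods give the time of day at which lungs were taken. Stc1 was higher by 0.94 in room air and 0.95 in hyperoxia (adjusted p = 0.0452). Tubb6 was lower by 1.02 and 0.98 (adjusted p = 0.0454). These calls rested on all arrays more than those above: Per3, Tubb6, Col10a1 and Cdr2 stayed called in 1 of the 12 fits that left out 1 array, Stc1 in 2, Gria3 and Sqle in 3, Kdm6b in 4 and Ddx17 in 5. The array whose absence left Per3, Tubb6, Col10a1 and Cdr2 called was Sphk1-/- HO 2. Without WT RA 2 none of the 10 was called, and Cd300ld was otherwise lost only without Sphk1-/- HO 1.

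**Figure D2:**
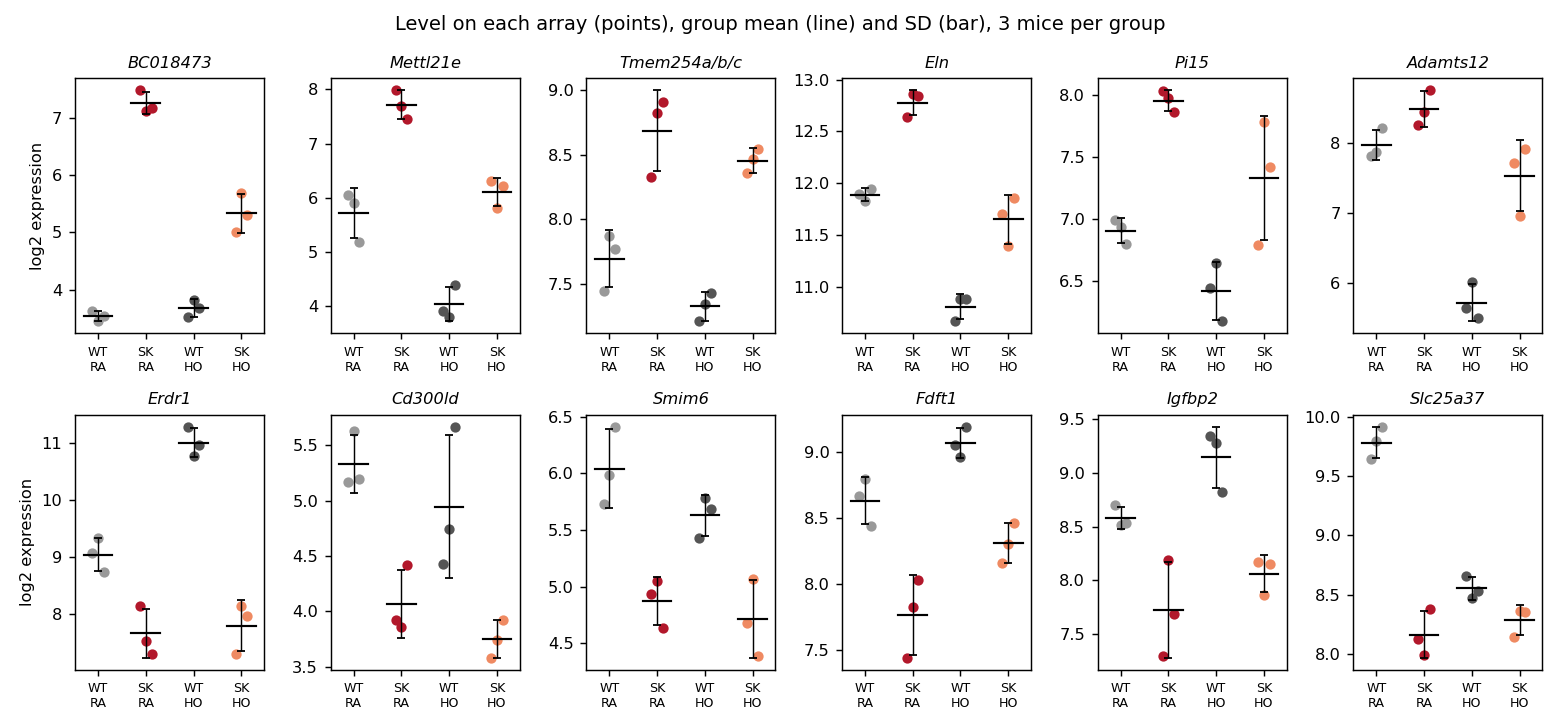
Log2 expression of 12 genes on each array, in the order WT RA, Sphk1-/- RA (SK RA), WT HO and Sphk1-/- HO (SK HO), with the group mean as a line and the SD as a bar (3 mice per group; each panel has its own scale). Mettl21e, Tmem254a/b/c and Eln are higher and Fdft1 and Igfbp2 lower in both knockout groups, whereas the measured difference of BC018473 and Slc25a37 is larger in room air and that of Adamts12 and Erdr1 larger in hyperoxia.

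Other genes shifted at both levels had a larger measured difference in hyperoxia, and for some of them that gap between the 2 differences was called. Among the 12 genes with the highest effect, Scn3b (a sodium channel beta subunit), Veph1, Egfem1, Adamts12 (a secreted metalloprotease), Rbpjl (a relative of the Notch effector Rbpj), Sfta3-ps (a surfactant-associated pseudogene), 2700046A07Rik, Zim1 (a zinc finger gene) and Hc (complement C5) had effects of 0.27 to 0.79 in room air and 1.54 to 2.04 in hyperoxia. None of these room air differences passed the test on its own, and all the hyperoxia differences did. The interaction was called for 7 of the 9, and not for Scn3b (adjusted p = 0.215) or Adamts12 (adjusted p = 0.0614). Veph1 and 2700046A07Rik lay at the olfactory level on the 3 WT HO arrays, so their hyperoxia differences are lower bounds. All 9 were lower in WT HO than in WT RA, with WT HO minus WT RA between -3.20 (Egfem1) and -1.04 (2700046A07Rik), and each of these differences was called. Veph1, for example, was 6.06, 6.22 and 5.97 in WT RA, 6.30, 6.70 and 6.86 in Sphk1-/- RA, 4.48, 4.55 and 4.64 in WT HO, and 6.43, 6.11 and 6.57 in Sphk1-/- HO. The knockouts in hyperoxia were thus at or above the level of the WT in room air, and the interaction of 1.28 was called (adjusted p = 0.0105). Egfem1 fell out of the calls without WT RA 2 or WT HO 2 (largest adjusted p = 0.0595). Hc was called in 6 and Scn3b in 4 of the 12 fits that left out 1 array.

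Adamts12 was 7.82, 7.87 and 8.22 in WT RA, 8.26, 8.43 and 8.75 in Sphk1-/- RA, 5.63, 6.01 and 5.49 in WT HO, and 7.72, 6.96 and 7.91 in Sphk1-/- HO. The genotype effect was 1.17 (SE 0.18, adjusted p = 0.0123). Sfta3-ps followed the same pattern, with 9.43, 9.25 and 9.39 in WT RA and 10.08, 9.73 and 9.60 in Sphk1-/- RA, against 7.92, 7.75 and 7.97 in WT HO and 9.82, 9.20 and 9.77 in Sphk1-/- HO. Its effect was 1.08 (SE 0.13, adjusted p = 0.00407). Both genes kept their call whichever array was left out.

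Lower genes with the larger measured difference in hyperoxia were Prg4 (lubricin), Tinagl1 (a matricellular protein), Wee1 (the kinase that holds Cdk1 inactive before mitosis), Acox2 (a peroxisomal oxidase of bile acid precursors), Ahsg (fetuin-A) and Fxyd6 (a regulator of the sodium pump). They were lower in Sphk1-/- RA by 0.24 to 0.53 and in Sphk1-/- HO by 1.03 to 1.66. The interaction was not called for Ahsg (adjusted p = 0.274) or Fxyd6 (adjusted p = 0.207). Tinagl1 was 8.51, 8.52 and 8.62 in WT RA, 8.27, 8.45 and 8.20 in Sphk1-/- RA, 10.97, 11.00 and 11.16 in WT HO, and 9.07, 9.96 and 9.11 in Sphk1-/- HO, an effect of -0.95 (SE 0.15, adjusted p = 0.0134). Wee1 was 7.59, 7.77 and 7.50 in WT RA, 7.23, 7.40 and 7.40 in Sphk1-/- RA, 8.69, 8.72 and 8.50 in WT HO, and 6.88, 7.49 and 7.23 in Sphk1-/- HO, an effect of -0.86 (SE 0.11, adjusted p = 0.00718). WT HO exceeded WT RA by 0.40 to 2.49 in these genes, which was called for all of them except Ahsg. Prg4 was low in general, with 8 of 12 arrays under the 95th percentile of the olfactory transcripts, among them all 6 in room air, so that its room air difference is one between arrays at low signal.

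Slc25a37 (mitoferrin, the mitochondrial iron importer used by red cell precursors) and BC018473 were the 2 genes with a called interaction and the larger measured shift in room air. Slc25a37 was 9.64, 9.79 and 9.91 in WT RA and 8.12, 7.99 and 8.38 in Sphk1-/- RA, and 8.66, 8.47 and 8.53 in WT HO and 8.14, 8.37 and 8.36 in Sphk1-/- HO. The 2 hyperoxia groups did not overlap but lay close, and the effect was -1.62 in room air against -0.27 in hyperoxia. The mean level of the 4 erythroid markers moved with the room air difference, from 0.72 to 1.09 in WT RA to between -0.01 and 0.24 in Sphk1-/- RA. In hyperoxia it moved the other way, from between -1.01 and -0.89 in WT to between -0.34 and 0.19 in Sphk1-/-. Its part in the Slc25a37 values was not tested.

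**Figure D3:**
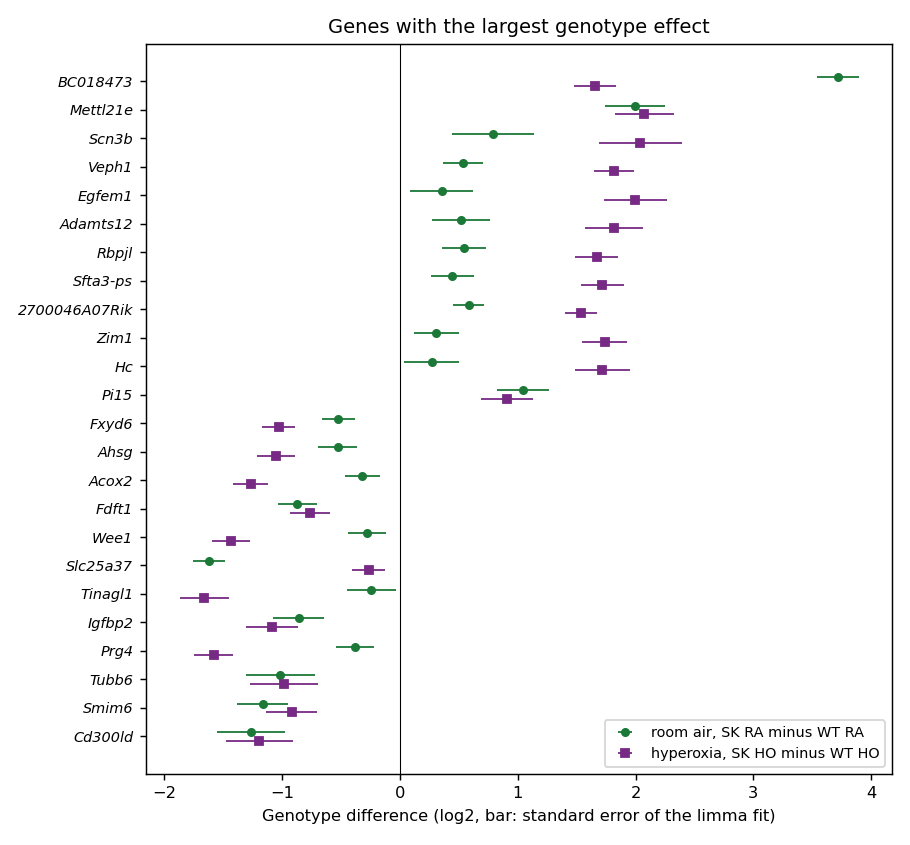
Difference between Sphk1-/- (SK) and WT in log2 for the 12 genes with the highest and the 12 with the lowest genotype effect among genes shifted at both oxygen levels, in room air (green circles) and in hyperoxia (purple squares), with the standard error of the limma fit as bars. The symbols coincide for Mettl21e, Pi15, Fdft1 and Tubb6, and lie apart for BC018473, Slc25a37, Wee1 and most of the higher genes.

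BC018473, a gene annotated from a cDNA with no established role, had the largest fitted effect of the named genes. Its levels were 3.64, 3.45 and 3.54 in WT RA, 7.48, 7.12 and 7.17 in Sphk1-/- RA, 3.52, 3.82 and 3.69 in WT HO, and 5.01, 5.68 and 5.31 in Sphk1-/- HO. All 6 WT arrays lay under the 95th percentile of the olfactory transcripts and all 6 knockout arrays above it. With the WT arrays set to that percentile the knockouts were at least 5.43-fold higher in room air and at least 1.61-fold higher in hyperoxia. The fitted effect was 2.68 (SE 0.13, adjusted p = 7.43e-06), with measured differences of 3.71 and 1.65, whose sizes rest on WT values at low signal. BC018473 lies 0.22 Mb from Sphk1 in the RefSeq gene order of GRCm38.p6, and it was not alone there.

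Of the 204 measured genes within 5 Mb of Sphk1, 6 (2.94%) were shifted at both oxygen levels, against 127 of the other 21976 genes (0.578%). On the side of lower coordinates were Kif19a, a kinesin of motile cilia, Cd300ld, an immunoglobulin-like receptor of myeloid cells, and Smim6, a small membrane protein, at -1.77, -1.55 and -0.62 Mb. On the other side were St6galnac2, a sialyltransferase, at 0.15 Mb, BC018473, and the splicing factor Srsf2 at 0.32 Mb. In this region, 2 of the 6 were higher and 4 were lower in the knockouts.

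Smim6 was 5.72, 5.99 and 6.41 in WT RA, 4.94, 5.05 and 4.64 in Sphk1-/- RA, 5.43, 5.78 and 5.68 in WT HO, and 4.68, 5.07 and 4.39 in Sphk1-/- HO, an effect of -1.04 (SE 0.15, adjusted p = 0.011) that was called at each oxygen level and whichever array was left out. Cd300ld was 5.17, 5.63 and 5.19 in WT RA, 3.92, 3.86 and 4.42 in Sphk1-/- RA, 4.43, 4.74 and 5.67 in WT HO, and 3.58, 3.74 and 3.92 in Sphk1-/- HO, an effect of -1.23 (SE 0.20, adjusted p = 0.0189), with 7 of 12 arrays at the level of the olfactory transcripts. The knockouts were below WT in both genes. For Cd300ld all 6 knockout arrays lay at that low level, so WT was at least 1.55-fold higher in room air and at least 1.19-fold in hyperoxia, and the distances in air and oxygen cannot be compared.

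Srsf2 was tightly grouped, at 9.87, 9.99 and 9.80 in WT RA, 9.53, 9.47 and 9.51 in Sphk1-/- RA, 10.10, 10.15 and 10.15 in WT HO, and 9.15, 9.59 and 9.44 in Sphk1-/- HO (effect -0.56, SE 0.09, adjusted p = 0.019). It lost its call without WT RA 2, WT HO 2 or WT HO 3 (largest adjusted p = 0.062). St6galnac2 was higher by 0.71 in room air and 0.53 in hyperoxia (adjusted p = 0.0468), and Kif19a lower by 0.16 and 0.77 (adjusted p = 0.0263), and each was called in 2 of the 12 fits that left out 1 array. In all 9 of the 204 neighbours were called, where 1.54% of all genes were. The other 3 were Grin2c, a glutamate receptor subunit at -1.28 Mb (effect 1.38, adjusted p = 0.0463), Mxra7 (-0.53) and Fasn (0.67), whose arrays overlapped at 1 oxygen level or more. The deletion itself, alleles linked to it and hybridization of either allele to the probes cannot be told apart in this design.

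**Figure D4:**
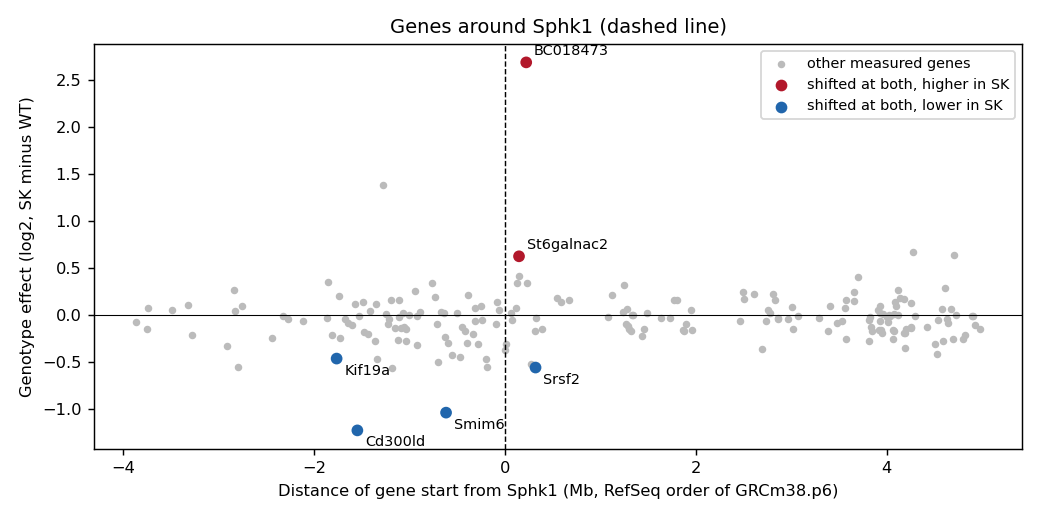
Genotype effect over both oxygen levels (log2, SK minus WT) of the 204 measured genes within 5 Mb of Sphk1, against the distance of the gene from Sphk1 (dashed line) in Mb. The 6 genes shifted at both oxygen levels, 2 higher (red) and 4 lower (blue), are marked, and BC018473 stands apart at a fitted 2.68.

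Some features with large shifts at both levels are outside the named set, and they were picked after their values were seen. Most have no single gene symbol. Erdr1 has one, but its transcript with the highest mean, used for the gene, was not shifted at both levels. Of the 193 transcripts, 13 passed the test under every alternative that could be fitted to them. These were Mettl21e, Eln, Fdft1, BC018473, 1 transcript of Erdr1, 3 transcripts of the near-identical genes Tmem254a, Tmem254b and Tmem254c, and 5 transcripts without an annotation here, 2 of which held identical values. Transcript 17549150 was 5.02, 5.38 and 5.59 in WT RA, 7.78, 8.41 and 8.13 in Sphk1-/- RA, 4.73, 5.26 and 5.59 in WT HO, and 8.32, 9.59 and 8.28 in Sphk1-/- HO. Its fitted effect was 3.15 (SE 0.24, adjusted p = 0.000448), with 2.77 in room air and 3.53 in hyperoxia, and transcript 17549062 was similar at 3.01. The fitted 2.68 of BC018473 rests on WT values at low signal, so its size cannot be ranked against these.

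The Tmem254 transcripts could not be assigned to 1 of the 3 copies. The one with the largest effect was 7.45, 7.87 and 7.77 in WT RA, 8.33, 8.83 and 8.91 in Sphk1-/- RA, 7.21, 7.34 and 7.43 in WT HO, and 8.36, 8.46 and 8.55 in Sphk1-/- HO. The effect was 1.06 (SE 0.12, adjusted p = 0.00346) with an interaction of 0.14. Erdr1, a gene of the pseudoautosomal region where copies and repeats make probe sets uncertain, had 2 transcripts that differed. One was 9.06, 9.32 and 8.73 in WT RA, 8.14, 7.52 and 7.30 in Sphk1-/- RA, 11.29, 10.78 and 10.96 in WT HO, and 7.28, 8.13 and 7.96 in Sphk1-/- HO (effect -2.30, SE 0.19, adjusted p = 0.0008). This transcript differed by -1.39 in room air and -3.22 in hyperoxia, and its interaction of -1.83 was called (adjusted p = 0.0194). The other had an effect of -1.03 (adjusted p = 0.00572) and overlapped between genotypes in room air.

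Several of the higher genes act on the extracellular matrix. In a list of 29 measured matrix processing enzymes, drawn up after the values were seen, 6 were called higher and none lower, where 0.897% of all genes were called higher and 0.645% lower. Of these, 5 were shifted at both levels: the metalloproteases Adamts10 and Adamts12, Bmp1, which cuts procollagen, Colgalt2, which adds galactose to collagen, and Sulf1, which trims heparan sulfate. Adamts10 was higher by 0.90 in room air and 0.85 in hyperoxia (adjusted p = 0.047). Adamts10 and Colgalt2 lost their call with the level of Y-linked genes as a covariate, and each stayed called in 1 of the 12 fits that left out 1 array. Bmp1 was 8.70, 8.72 and 8.70 in WT RA, 9.14, 9.12 and 9.06 in Sphk1-/- RA, 7.35, 7.81 and 7.55 in WT HO, and 8.69, 8.38 and 9.11 in Sphk1-/- HO (effect 0.78, SE 0.13, adjusted p = 0.0171). Over the 29 genes the median was 0.25 in room air and 0.28 in hyperoxia, against 0.00 and -0.03 over all genes.

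The collagen chains showed a different layout. Of 18 measured chains, 8 were called higher and 1, Col8a1, lower for the mean effect, but the median of the list was -0.06 in room air and 1.09 in hyperoxia, and 11 had a called interaction. Over all genes 0.897% were called higher, 0.645% were called lower and 6.98% had a called interaction. Col3a1 and Col1a2, chains of the fibrillar collagens, were shifted at both levels. Col1a2 differed by 0.14 in room air, where it was not called (adjusted p = 0.835), and by 1.32 in hyperoxia. Its interaction was called (adjusted p = 0.0333). For the genotype effect, Col1a2 stayed called in 1 of the 12 fits that left out 1 array. Col3a1 was 11.47, 11.43 and 11.62 in WT RA, 11.71, 11.84 and 11.86 in Sphk1-/- RA, 9.81, 9.92 and 9.83 in WT HO, and 11.13, 11.01 and 11.35 in Sphk1-/- HO. Its effect was 0.80 (SE 0.09, adjusted p = 0.00304), with 0.30 in room air, where it was not called, and 1.31 in hyperoxia. Col5a1, which joins those fibrils, differed by -0.05 in room air and 1.30 in hyperoxia.

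Enzymes of sterol synthesis were among the lower genes. Of 17 measured enzymes of the pathway from acetyl units to cholesterol, a list widened after the values were seen, 3 were called lower and none higher, and 13 of the 17 were lower at both oxygen levels in group means. Over all genes 0.645% were called lower and 26.1% were lower at both levels. The 3 were Fdft1, Sqle, which oxidises squalene, and Msmo1, which removes a methyl group from the sterol ring, and all of them were shifted at both levels. Sqle was 7.08, 7.22 and 7.09 in WT RA, 6.05, 6.59 and 6.49 in Sphk1-/- RA, 7.84, 7.77 and 7.81 in WT HO, and 6.80, 7.41 and 7.19 in Sphk1-/- HO (effect -0.71, SE 0.13, adjusted p = 0.0248), and it lost its call with the Y-linked covariate. Msmo1 was 6.85, 6.98 and 6.76 in WT RA, 6.24, 6.66 and 6.60 in Sphk1-/- RA, 7.82, 7.86 and 7.75 in WT HO, and 6.56, 7.04 and 6.78 in Sphk1-/- HO (effect -0.69, SE 0.11, adjusted p = 0.0167). The list median was -0.33 in room air and -0.41 in hyperoxia. Hmgcs1, which makes the first committed precursor, differed by -0.52 and -0.09 and Cyp51 by -0.85 and -0.47, and neither was called (adjusted p = 0.23 and 0.054). Fasn, the fatty acid synthase, differed by 0.02 in room air and 1.32 in hyperoxia and was called higher (adjusted p = 0.00504).

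Sterol genes are known targets of SREBP factors, which bind a sterol element next to boxes for the factor NF-Y. The 250 bases before the start of Msmo1 (chr8:64733579-64733828, minus strand) and of Hmgcs1 (chr13:119690101-119690350, plus strand), from RefSeq with GRCm38.p6, are shown because Msmo1 is the shifted member of the pathway with a promoter in the table and Hmgcs1 is an uncalled member that holds the sterol element. Capitals mark matches on either strand to TCACNCCAC, a form of the sterol element, and to CCAAT, the NF-Y box.
Msmo1: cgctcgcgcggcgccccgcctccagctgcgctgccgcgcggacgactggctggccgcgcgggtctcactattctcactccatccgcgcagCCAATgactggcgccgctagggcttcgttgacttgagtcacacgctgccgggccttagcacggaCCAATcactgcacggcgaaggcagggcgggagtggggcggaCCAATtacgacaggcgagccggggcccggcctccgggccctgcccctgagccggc
Hmgcs1: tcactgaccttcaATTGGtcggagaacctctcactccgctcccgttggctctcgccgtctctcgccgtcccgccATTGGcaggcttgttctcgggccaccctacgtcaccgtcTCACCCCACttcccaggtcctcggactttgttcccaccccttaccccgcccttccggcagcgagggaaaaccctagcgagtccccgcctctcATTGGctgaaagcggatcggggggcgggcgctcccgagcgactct
Msmo1 held CCAAT at 3 places and no match to TCACNCCAC, and Hmgcs1 held CCAAT at 3 places and TCACNCCAC once. Of 32851 promoters of this length, 33.8% held CCAAT and 1.05% held TCACNCCAC. The 14 measured sterol genes in the table had 17 promoters, of which 14 held CCAAT and 1 held TCACNCCAC. A match is a description of letters, not of a site.

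Genes of the motile cilium, the organelle of multiciliated airway cells, were looked at in a list of 44 measured members that was also drawn up after the values were seen. None was called higher and 9 were called lower, 8 of them at both levels: the dynein assembly factors Zmynd10 and Lrrc6, the axonemal proteins Ccdc113, Spag16 and Tekt2, Kif19a, Tmem107 of the transition zone and the kinase Mok. Over all genes 0.645% were called lower. All 8 lost their call with the Y-linked covariate, and with 1 array left out Zmynd10, Tekt2 and Mok stayed called in 1 of 12 fits, Lrrc6, Ccdc113, Spag16 and Kif19a in 2 and Tmem107 in 6. Zmynd10 was 6.03, 6.06 and 5.99 in WT RA, 5.56, 5.72 and 5.78 in Sphk1-/- RA, 6.74, 6.53 and 6.74 in WT HO, and 5.45, 6.10 and 5.75 in Sphk1-/- HO (effect -0.62, SE 0.11, adjusted p = 0.0278). In group means 26 of the 44 were lower at both levels, against 26.1% of all genes, and the median was -0.13 in room air and -0.50 in hyperoxia. None of the 9 measured ciliated cell markers fixed as a separate list was called, where 0.645% of all genes were called lower. In group means 6 of the 9 were lower and 0 higher at both levels, against 26.1% and 20.9% of all genes. At an unadjusted p below 0.05, 4 of the 9 were lower and 0 higher, against 1931 and 1790 of all 22180 genes. Their mean level was -0.24 to -0.21 in WT RA, -0.38 to -0.23 in Sphk1-/- RA, 0.38 to 0.52 in WT HO and -0.17 to 0.22 in Sphk1-/- HO. The part of these markers in the cilium gene values was not tested.

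**Figure D5:**
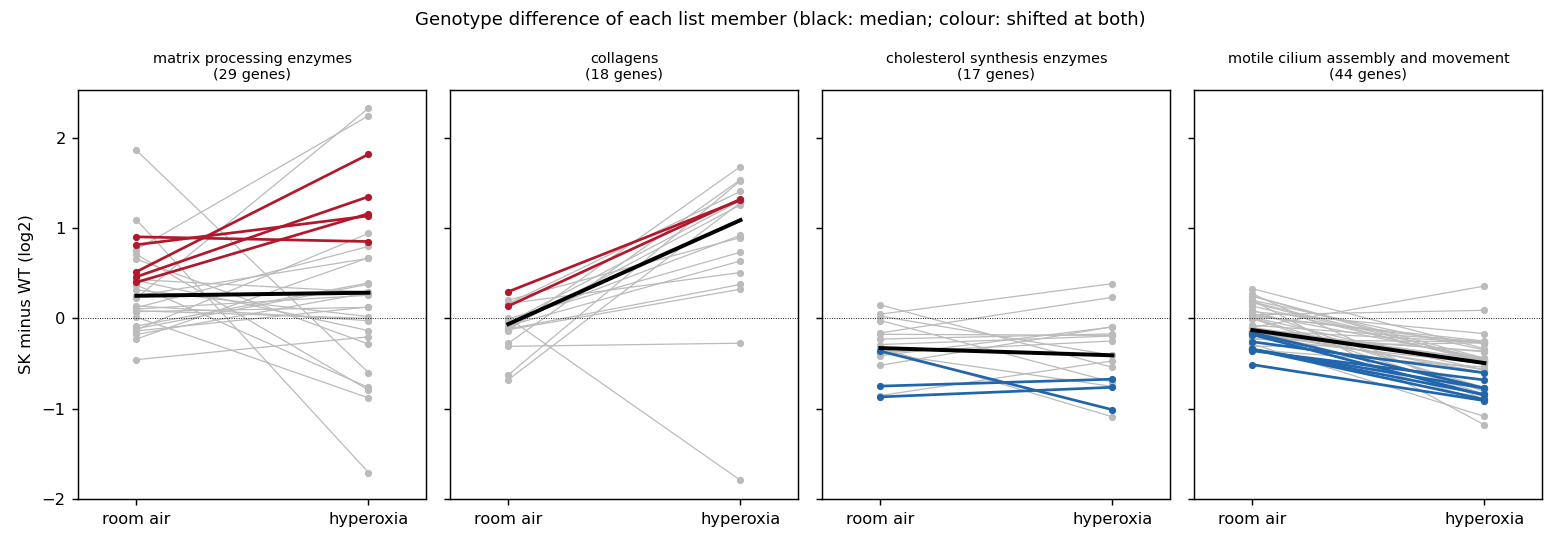
Difference between Sphk1-/- (SK) and WT in log2 for each measured member of 4 gene lists in room air and in hyperoxia, joined by a line per gene, with the list median in black and genes shifted at both oxygen levels in red (higher) or blue (lower). The medians are above 0 at both levels for the 29 matrix processing enzymes, below 0 at both for the 17 cholesterol synthesis enzymes and the 44 cilium genes, and near 0 in room air but at 1.09 in hyperoxia for the 18 collagens.

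Among 17 measured genes of the insulin-like growth factor axis, a list also made after the values were seen, Igfbp2 was lower and Igfbp5 and Stc1 were higher at both levels. Over all genes 0.185% were shifted lower and 0.415% higher. Igfbp5, a binding protein encoded next to Igfbp2, was 9.29, 9.10 and 9.37 in WT RA, 9.81, 10.12 and 10.03 in Sphk1-/- RA, 7.19, 7.54 and 7.87 in WT HO, and 8.43, 8.31 and 9.11 in Sphk1-/- HO (effect 0.91, SE 0.16, adjusted p = 0.0237). Its room air difference was not called on its own (adjusted p = 0.183). With 1 array left out, Igfbp5 stayed called in 5 of 12 fits. The growth factor Igf1 also passed the test for the mean at 0.62 but differed by -0.30 in room air and 1.55 in hyperoxia. Among 24 measured SR proteins and other RNA processing factors, again listed after the values were seen, Tra2a, Pnisr and Ddx17 were higher and Srsf2 lower at both levels, where 0.415% of all genes were shifted higher and 0.185% lower. Pnisr lost its call with the Y-linked covariate and in 11 of 12 fits that left out 1 array. Tra2a, a regulator of exon choice, was 7.39, 7.37 and 7.49 in WT RA, 8.11, 8.15 and 8.49 in Sphk1-/- RA, 8.13, 8.19 and 7.95 in WT HO, and 8.49, 8.70 and 8.60 in Sphk1-/- HO (effect 0.67, SE 0.10, adjusted p = 0.0109). Gclm, the modifier subunit of the enzyme that starts glutathione synthesis, was lower by 0.34 and 0.71 (adjusted p = 0.0209). It was the 1 of 12 measured NRF2 targets shifted at both levels, where 0.600% of all genes were. Acot1, an acyl-CoA thioesterase, was lower by 0.71 in room air and 0.30 in hyperoxia (adjusted p = 0.0291 for the genotype effect). Its hyperoxia difference was not called on its own (adjusted p = 0.254). Gclm and Acot1 lost their call with the Y-linked covariate. With 1 array left out, Gclm stayed called in 5 of 12 fits and Acot1 in 2.

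Several lists had no member shifted at both levels, where 0.600% of all genes were. None of the 31 measured genes of sphingolipid turnover was called for the genotype effect, where 1.54% of all genes were. At an unadjusted p below 0.05, 5 of the 31 were higher and 5 lower, against 1790 and 1931 of all 22180 genes. None of the 19 genes of G2 and mitosis was called either. All 19 had a called interaction, where 6.98% of all genes had one, and their median difference was -1.47 in room air and 1.49 in hyperoxia. Of 12 measured genes of MHC class I and II, H2-K1 and B2m were called lower for the mean, where 0.645% of all genes were. However, B2m differed by 0.01 in room air and -0.89 in hyperoxia. Other genes that passed the test for the mean without a shift at both levels were the glutathione transferase Gsta3 (0.21 and -2.06), the cytochrome P450 Cyp2b10 (0.62 and -2.88), the stress response genes Mthfd2 (-0.28 and -1.78) and Chac1 (0.18 and -1.71), the growth signals Wnt5a (0.07 and 1.51), Bmp5 (0.33 and 0.89) and Nrp1 (0.13 and 1.31), and the type 1 cell marker Rtkn2 (-0.08 and 2.03), each given as the difference in room air and in hyperoxia. Among immune cell markers, Cpa3 of mast cells differed by -1.20 in room air (adjusted p = 0.0281) and by at least 2.32 in hyperoxia, its WT HO arrays being at the olfactory level. Stfa1 of neutrophils differed by -1.11 (adjusted p = 0.132) and 4.86, and Ms4a1 of B cells by 1.77 and -0.05 (adjusted p = 0.947). Krt79, listed with alveolar macrophages, differed by 0.35 and -1.97, and Pi16, listed with fibroblasts, by 0.01 and -1.43. No member of the cell type marker lists was shifted at both levels, where 0.600% of all genes were.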

How the data were processed

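Total RNA of 12 single lungs was labelled and hybridized to whole-transcript arrays. The authors processed the scans in Partek software by RMA (background correction, quantile normalization and probe set summary), and the deposited table holds log2 values for 41345 transcripts. Neither labels nor methods name the arrays' genome build. Gene names came from the platform annotation (25341 transcripts listed, 23521 with 1 symbol and 1820 with several), and neighbours, distances and promoters from RefSeq with GRCm38.p6.

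Values were used as deposited. The model of limma 3.58.1 in R 4.3.3 held the 4 group means, and the genotype effect was the mean of Sphk1-/- RA and Sphk1-/- HO minus the mean of WT RA and WT HO. The differences at each oxygen level and the interaction came from the same fit. Benjamini-Hochberg adjustment ran over all 41345 transcripts for each contrast, and a transcript was called at an adjusted p below 0.05. Every adjusted p in the text is from this fit unless a left-out array is named. For a gene with several transcripts, the one with the highest mean was used. Where all 3 arrays of a group lay under the 95th percentile of the olfactory transcripts on the same array, they were set to it and the difference is given as "at least", a rule chosen after the values were seen. The number of arrays, 3 per group, limits the precision. The fit was tested on simulated data before use.

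Named genes were Sphk1, the 12 highest and 12 lowest effects among genes shifted at both levels, the 6 in each direction with the smallest interaction at an effect of at least 0.5, in each list up to 2 called members ranked by adjusted p, and shifted genes within 5 Mb of Sphk1. Others were chosen after their values were seen. The members and lists were chosen with earlier results of these data known. Marker levels are means over a list of each gene's value relative to its mean over the 12 arrays. Replicate numbers were not treated as pairing the mice, and the values do not settle whether they did. The deviations of same-numbered arrays from their group means correlated at -0.06 to 0.40, above 0.1 in 9 of 18 pairs. The median was 0.098 for same-numbered arrays and -0.055 for the others. Alternatives changed the variance model, the filter on dim transcripts, the scaling, a covariate for Y-linked level, a replicate block, an additive model, 1 transcript per gene and the arrays included.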

Additional observations from a re-analysis of the deposited data

Results flagged for a closer look

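These genes were picked out because their genotype difference was not the same in room air and in hyperoxia by the interaction test of the limma fit (hyperoxia difference minus room air difference, adjusted p below 0.05), which 1979 of all transcripts passed (4.79%). Sphk1 itself had an interaction of -1.77 (adjusted p = 0.00976).

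Among genes shifted at both oxygen levels, the interaction was positive for Egfem1 at 1.64, Hc at 1.45, Zim1 at 1.43, Veph1 at 1.28, Sfta3-ps at 1.27, Rbpjl at 1.13, Col3a1 at 1.01 and 2700046A07Rik at 0.96, all higher in the knockouts and more so in hyperoxia. It was negative for Tinagl1 at -1.42, Prg4 at -1.20, Wee1 at -1.16 and Acox2 at -0.95, all lower in the knockouts and more so in hyperoxia. BC018473 (-2.06) and Slc25a37 (1.35) had the larger measured difference in room air. The sizes for BC018473, Veph1, 2700046A07Rik, Prg4, Fbn2 and Cpa3 are limited by a group whose arrays were all at the level of the olfactory transcripts.

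Among genes called for the mean effect but not shifted at both levels, the values were 5.97 for Stfa1, 4.47 for Cpa3, 4.03 for Fbn2, 2.11 for Rtkn2, 1.44 for Wnt5a, 1.35 for Col5a1, 1.30 for Fasn and 1.18 for Nrp1. They were -3.49 for Cyp2b10, -2.31 for Krt79, -2.27 for Gsta3, -1.89 for Chac1, -1.82 for Ms4a1, -1.50 for Mthfd2, -1.44 for Pi16, -1.24 for H2-K1 and -0.90 for B2m.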

How the results depend on the processing

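The 478 called transcripts, the 193 shifted at both oxygen levels and the 16 called in room air and in hyperoxia with the same sign became 916, 339 and 27 without dim transcripts, 881, 268 and 23 with 1 transcript per gene, 306, 119 and 9 after median centring, 298, 103 and 13 with a Y-linked covariate, and 13 called, all shifted at both, in the additive model, whose residual holds the interaction. Leaving out 1 array gave 158 to 1255, 67 to 499 and 7 to 41, the highest each time without Sphk1-/- HO 2. Without Sphk1-/- RA 1 and Sphk1-/- HO 1 they were 228, 132 and 14, and without the 4 arrays high in Y-linked genes, an alternative added after seeing the data, 896, 497 and 25. The replicate block, with numbers not known to pair the mice, gave 734, 249 and 30, and 7 of 12 arrays correlated best with their own number. The ordinary variance, the trend with a robust prior and the further quantile normalization stayed within 1.5 times of each count, at 350 to 638 called. The causes were not tested. All tested members of the 193 kept their sign under every alternative, and 51 were called in all 12 fits that left out 1 array. Where arrays were left out, or only the variance model or filter changed, the order of arrays fixed that sign in advance. Of the 57 called genes named, BC018473, Mettl21e, Eln and Fdft1 kept their call under every alternative. The median genotype effect over all transcripts was -0.004, and -0.05 after median centring. Low signal limits Mettl21e in WT HO, BC018473 in WT, Cd300ld and Prg4, which had 3, 6, 7 and 8 of 12 arrays at the level of the olfactory transcripts.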
